A study of Mus musculus with 6 samples.

Results

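Lysosomes are carried along axons by motor proteins on microtubules, and 36 genes of this machinery were followed in the cerebellum of Tmem106b knockout mice. They were chosen by symbol: the microtubule-associated protein gene Map6, the small GTPase genes Arl8a and Arl8b with their effectors, kinesin, dynein and dynactin genes, the Rab7 group, and the genes of the HOPS complex. All 36 were among the 43346 genes of the deposited count table, and all 36 passed the filter on low counts, which left 16934 genes. RNA came from the cerebellum of 6 mice aged 15 months, 3 wild-type (Tmem106b+/+, here WT) and 3 homozygous knockout (Tmem106b-/-, here KO), with 1 female and 2 males per genotype and 1 library per mouse. No source used here gives the strain, the structure of the knockout allele or the kinship of the mice.

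As background, outward movement towards the axon tip starts when the BORC complex brings ARL8 to the lysosome. ARL8 then recruits kinesin-1 through PLEKHM2, also called SKIP, or binds kinesin-3 motors directly. Return to the cell body depends on dynein and dynactin, which are held on late endosomes by RAB7 through its effectors RILP and ORP1L, or by JIP adaptors. The HOPS tether then brings the membranes together for fusion. TMEM106B is a lysosomal membrane protein that binds MAP6, a protein that stabilises microtubules, and the Purkinje cells named in the title of the study send long axons to the deep nuclei.

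The promoters of 2 HOPS genes that encode binding partners, Vps16 and Vps33a, are shown because each holds the palindrome TCACGTGA, the core of the type of site bound by TFEB, a transcription factor of lysosomal genes. RefSeq (GRCm38.p6) gave promoters for 24 of the 36 genes, 30 sequences from 250 bases before to 50 bases after a start site. The palindrome reads the same on both strands and stood in 2 of these 30, against 0.974% of all 32851 promoters of the same length. Its inner word CACGTG, which the palindrome contains, stood in 4 of the 30 (Kif1a, Ndel1, Vps16 and Vps33a), against 7.15% of all. The Vps16 window is chr2:130424070-130424369 on the plus strand and the Vps33a window chr5:123572966-123573265 on the minus strand, each written 5′ to 3′ along the gene with each copy of the palindrome in capitals.
Vps16: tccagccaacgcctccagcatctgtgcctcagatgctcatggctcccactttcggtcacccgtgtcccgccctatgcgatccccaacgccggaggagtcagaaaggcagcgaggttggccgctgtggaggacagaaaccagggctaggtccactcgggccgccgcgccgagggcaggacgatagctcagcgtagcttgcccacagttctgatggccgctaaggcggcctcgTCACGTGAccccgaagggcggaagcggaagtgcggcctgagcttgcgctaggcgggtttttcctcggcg
Vps33a: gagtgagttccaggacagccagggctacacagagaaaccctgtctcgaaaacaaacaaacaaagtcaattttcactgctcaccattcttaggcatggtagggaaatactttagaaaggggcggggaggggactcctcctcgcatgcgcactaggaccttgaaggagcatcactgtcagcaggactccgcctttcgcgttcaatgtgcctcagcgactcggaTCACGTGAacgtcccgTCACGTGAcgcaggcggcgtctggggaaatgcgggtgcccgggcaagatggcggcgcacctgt
Counted from the start site, the palindrome began at base -19 in Vps16, and its 2 copies in Vps33a began at -29 and -13. Such a match describes the letters of the window and is not evidence of binding.

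No gene of lysosome transport or fusion passed the threshold in KO against WT: 0 of 36 had an adjusted p under 0.05 by the quasi-likelihood F test of edgeR, with p-values adjusted over all genes after Benjamini and Hochberg, where 0.283% of all genes tested did (48 of 16934). At an unadjusted p under 0.05 there were 2 of 36, Kif5a (lower) and Dync1li2 (higher), or 5.56% against 8.96% of all genes (4.25% lower and 4.71% higher). DESeq2 called 1, Kif5a, where it called 1.37% of all genes, and limma-voom called 0, where it called 0.254%. In 3 genes the KO mice all lay on 1 side of the WT mice, Kif5a below and Snapin and Dync1li2 above, which is 8.33% of the members against 14.1% of all genes (6.35% below and 7.77% above). The log2 fold changes ran from -0.34 (Kif5a) to 0.16 (Dync1li2), with a median of -0.05 against 0.00 over all genes, and 26 of 36 were below 0 (72.2% against 49.9%). In the males alone 17 of 36 were below 0, against 48.4% of all genes, and the median was 0.00. With trends in GC content and length removed it was 29 of 36, against 52.2% of all genes, with a median of -0.06. The 95% interval of the log2 fold change lay within a 1.5-fold change in either direction for 33 of 36 genes. The exceptions were Plekhm2, Dctn1 and Rilp, whose lower bounds were -0.60, -0.62 and -0.61.

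**Figure D1:**
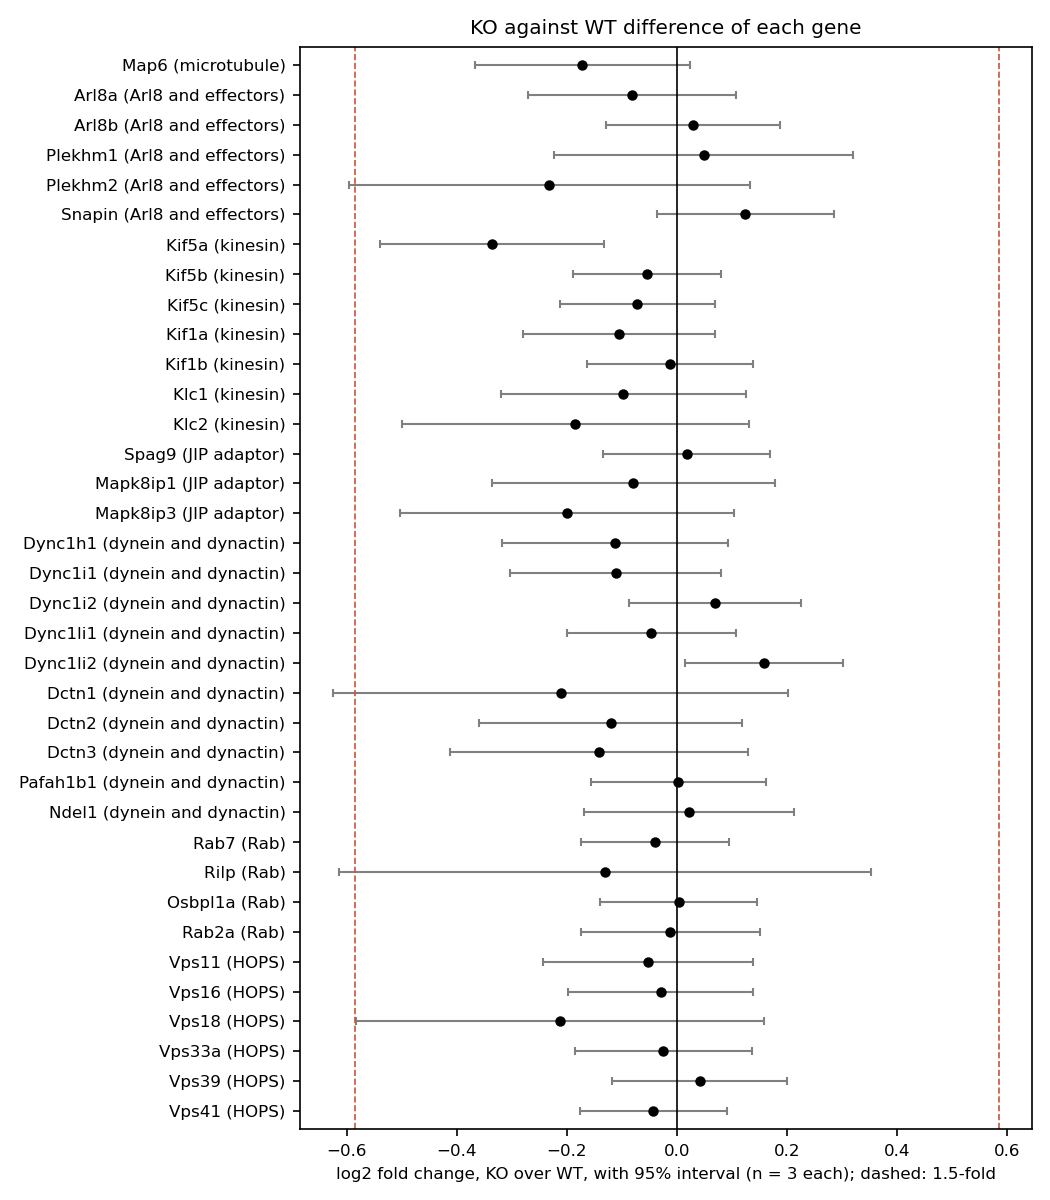
The horizontal axis gives the log2 fold change of KO over WT (n = 3 mice each) and its 95% interval for each of the 36 genes, with a solid line at 0 and dashed lines at a 1.5-fold change. The interval excludes 0 for Kif5a, at -0.34, and Dync1li2, at 0.16, and passes a dashed line for Plekhm2, Dctn1 and Rilp.

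Libraries differed in ways that touch these genes. Totals ran from 25245778 to 31135185 counts, of which the 36 genes took 1.11% to 1.20%. The library of the KO female, replicate 1, was low in genes rich in G and C: over all genes tested, its median log2 deviation from the mean of the 6 libraries was -0.26 in genes above the upper quartile of GC content (54.4%) and 0.15 in genes below the lower quartile (44.9%). Among the 18 members of higher GC content (51.5% to 60.4%) it was the lowest of the 6 libraries in 16, and among the other 18 (40.5% to 50.5%) it was the lowest in 1 and the highest in 10. Over all genes tested, WT replicate 1 and KO replicate 3 leaned the other way. Their medians were 0.12 and 0.14 above the upper quartile of GC content and -0.05 each below the lower quartile. Those of WT replicates 2 and 3 and KO replicate 2 lay between -0.02 and 0.02 in both. A fit on the males alone thus still holds KO replicate 3 and its trend. The library of the WT female, also replicate 1, was the highest of the 3 WT libraries in 31 of the 36 genes. Its 7 choroid plexus markers summed to 289 CPM (reads of a gene relative to the TMM-scaled library total), against 2283 to 7189 CPM in the other 5 libraries. Tmem106b, the check of the labels, gave 230 to 267 CPM in the WT mice and 62.7 to 69.7 CPM in the KO mice. Its RNA was thus reduced and not absent, at 27.2% of the WT level in the edgeR fit. Markers of the tissue were present in every library: 8 granule cell genes summed to 5761 to 6605 CPM and none of the 9 Purkinje cell genes was at 0.

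**Figure D2:**
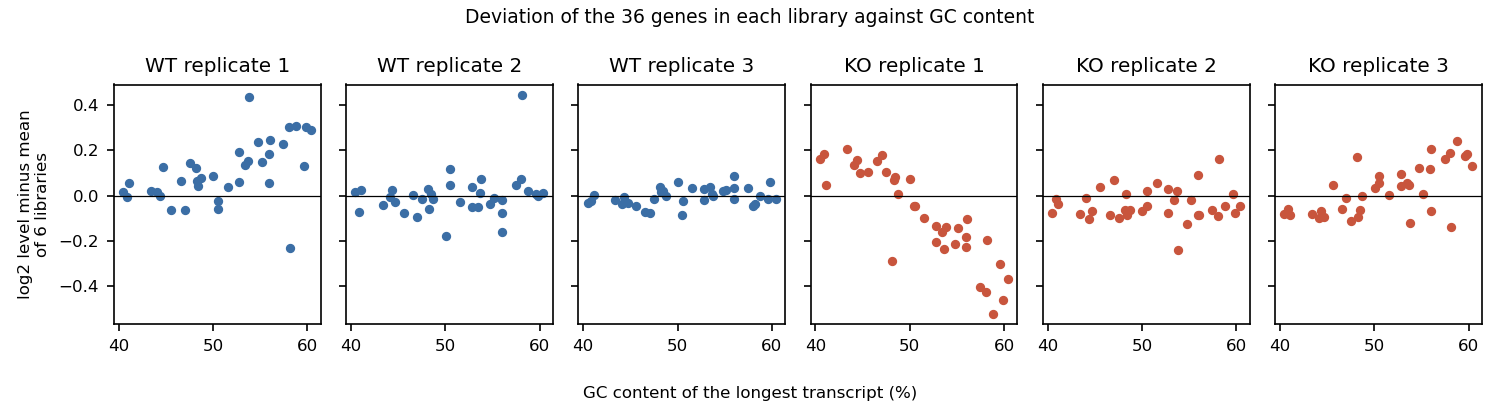
Each panel is 1 library, and each point is 1 of the 36 genes: the horizontal axis is the GC content of its longest transcript in percent and the vertical axis its log2 level minus the mean of the 6 libraries. In KO replicate 1 the points run from above 0 at low GC content to below 0 at high GC content, while WT replicate 1 and KO replicate 3 lean the other way.

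Map6 encodes the microtubule-stabilising partner of TMEM106B and lies on chromosome 7 at 99267447 to 99337137 (mm10). It gave 84.8, 67.9 and 75.9 CPM in WT replicates 1 to 3 and 66.6, 67.3 and 68.2 CPM in KO replicates 1 to 3. The KO mice lay close together, with replicates 1 and 2 just below the lowest WT mouse and replicate 3 just above it. The log2 fold change was -0.17 (SE 0.09, edgeR adjusted p = 0.625), with a 95% interval from -0.37 to 0.02. Over the 16 alternative fits it stayed below 0, from -0.24 (without WT replicate 2) to -0.08 (without WT replicate 1). Of 11 other structural microtubule-associated protein genes, 0 passed the threshold in either direction and 8 were below 0, with a median of -0.08. The highest mean CPM, not scaled by length, belonged to Map4 at -0.10 (SE 0.06) and Map1a at -0.20 (SE 0.10), with edgeR adjusted p-values of 0.709 and 0.639.

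Arl8a and Arl8b encode the GTPases that couple lysosomes to kinesin. Arl8a gave 157, 138 and 146 CPM in WT and 128, 141 and 148 CPM in KO, and Arl8b 266, 255 and 259 CPM in WT and 303, 248 and 248 CPM in KO. The groups overlapped in both, and KO replicate 1 was the lowest library for Arl8a and the highest for Arl8b. Per length of the gene model, Arl8b was the more abundant, at 319 ± 1.01 TPM (a level scaled per kilobase of the gene model) in WT and 334 ± 43.7 TPM in KO (SD, n = 3 each), and the pair together gave 549 ± 8.73 TPM in WT and 555 ± 30.2 TPM in KO. Arl8a made up 40.8% to 42.9% of the pair in WT and 34.9%, 42.0% and 43.2% in KO, so that the KO value apart from the rest was again that of replicate 1.

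Plekhm2 links ARL8 to kinesin-1, and Plekhm1 links RAB7 and ARL8 to the HOPS complex. Plekhm2 gave 109, 88.4 and 92.2 CPM in WT and 64.1, 83.9 and 101 CPM in KO, at a log2 fold change of -0.23 (SE 0.16, edgeR adjusted p = 0.734). It has 59.8% GC, its lowest value was in KO replicate 1, and KO replicate 3 lay above 2 of the 3 WT mice. Without KO replicate 1 its log2 fold change was 0.02. Plekhm1 stood at 40.6 ± 3.33 CPM in WT mice and 42.2 ± 6.36 CPM in KO mice (SD, n = 3 each). Its share of the summed Plekhm1 and Plekhm2 level per length was 25.4%, 26.5% and 28.4% in WT and 32.3%, 31.2% and 29.1% in KO. These shares did not overlap, at an exact two-sided permutation p = 0.1, the smallest that 3 against 3 mice allow, and an adjusted p of 0.24 over the 12 shares tested. KO replicate 1 gave the highest share, and Plekhm1, at 56.0% GC, is less rich in GC than Plekhm2.

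Snapin, a BORC subunit that also binds the dynein intermediate chain, gave 53.5, 52.9 and 54.1 CPM in WT and 60.0, 57.4 and 57.6 CPM in KO. Every KO mouse was above every WT mouse, and the mice of each genotype lay close together. The log2 fold change was 0.12 (SE 0.07, edgeR adjusted p = 0.680) and ran from 0.09 to 0.15 over the 16 alternative fits. The Snapin model overlaps Ilf2, which holds 235% of its counts, so its reads are uncertain without a known strand setting. Of the 7 other BORC genes 0 passed the threshold and 6 were below 0, with a median of -0.15. Their sum was 244 to 267 CPM in WT and 202, 231 and 271 CPM in KO replicates 1 to 3, so the groups overlapped. Among them Kxd1, the highest in mean CPM, was at -0.17 (SE 0.13, edgeR adjusted p = 0.766) and Bloc1s1 at 0.05 (SE 0.13, edgeR adjusted p = 0.928).

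Kif5a, one of 3 genes for the heavy chain of kinesin-1 and the one most restricted to neurons, had the largest difference of the 36. It lies on chromosome 10 at 127225696 to 127263363 (mm10), and the dynactin gene Dctn2 follows after a gap of 2898 bases. Kif5a gave 1257, 976 and 926 CPM in WT and 842, 785 and 852 CPM in KO. All KO mice were below all WT mice, WT replicate 1 was far above the other WT mice, and the gap between the groups lay between 926 CPM in WT replicate 3 and 852 CPM in KO replicate 3. The mean was 1053 ± 179 CPM in WT mice and 826 ± 36 CPM in KO mice (SD, n = 3 each), a log2 fold change of -0.34 (SE 0.09, 95% interval -0.54 to -0.13). The edgeR adjusted p was 0.247. It was 0.0374 in DESeq2, 0.044 in edgeR with no filter on low counts (0.751% of all genes called) and 0.042 in edgeR with GC content and length trends removed (1.6% of all genes called), so that the call depends on the fit. Over the 16 alternative fits the log2 fold change ran from -0.39 to -0.22 and the adjusted p from 0.0374 to 0.725. With WT replicate 1 left out the log2 fold change was -0.22, and with KO replicate 1 left out it was also -0.22, the smallest differences of these fits, at edgeR adjusted p-values of 0.315 and 0.251. Both of those fits rest on the males, since the sex term leaves a lone female no weight.

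Markers of Purkinje cells differed between the same mice. The 9 markers, all present, summed to 10569, 9731 and 10243 CPM in WT and 7359, 6326 and 6964 CPM in KO. In edgeR 4 of them fell (Itpr1, Car8, Ppp1r17 and Rgs8), and all 9 were below 0, with a median log2 fold change of -0.50. Itpr1 stood at -0.65 (SE 0.07), Calb1 at -0.43 (SE 0.09) and Pcp2 at -0.64 (SE 0.26), with edgeR adjusted p-values of 0.0134, 0.134 and 0.549. In tissue RNA, fewer cells of a type and less RNA per cell cannot be told apart, and the part of these cells in the Kif5a values was not tested. The 8 microglia markers summed to 181 to 219 CPM in WT and 265 to 310 CPM in KO, and their part was not tested either. Granule cell markers summed to 5761 to 6301 CPM in WT and 6319 to 6605 CPM in KO, with 0 of 8 called. The sums of the oligodendrocyte, astrocyte and red blood cell markers overlapped between the genotypes, with 0 of 8, 1 of 7 (Gfap, higher) and 0 of 5 called.

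**Figure D3:**
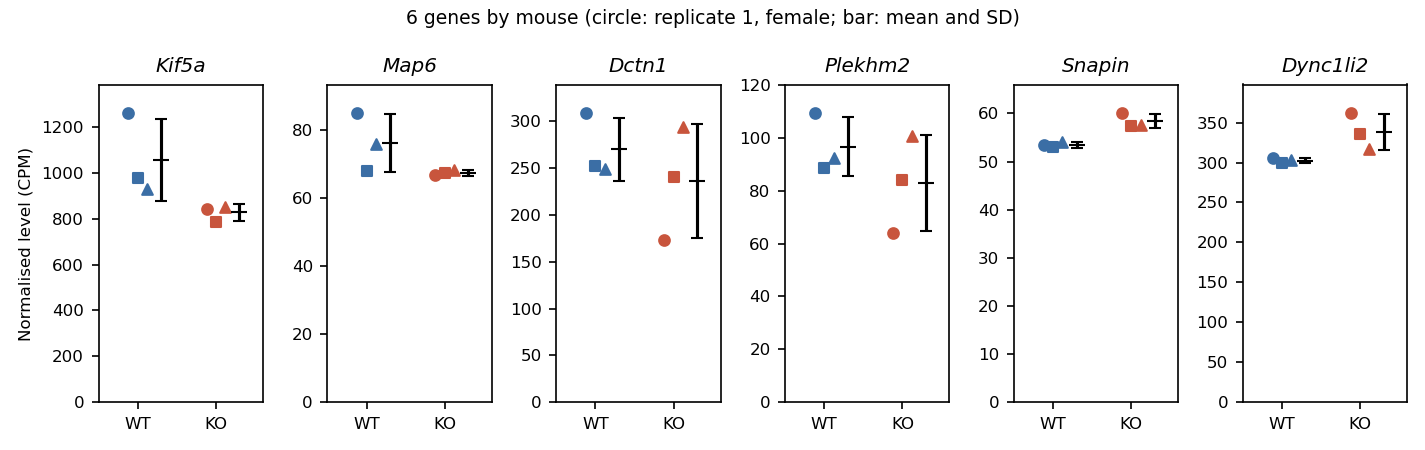
The vertical axis of each panel gives the normalised level in CPM, from 0, of Kif5a, Map6, Dctn1, Plekhm2, Snapin and Dync1li2 in each mouse (circle, square and triangle for replicates 1 to 3), with the mean and SD as black bars. Kif5a is lower in all KO mice, at 785 to 852 CPM against 926 to 1257 CPM, while the KO mice of Dctn1 and Plekhm2 spread across the WT range with replicate 1 lowest.

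The other kinesin heavy chains of this family were Kif5b, which is expressed in most tissues, and Kif5c, which like Kif5a is enriched in neurons. Kif5b gave 307 ± 5.52 CPM in WT mice and 296 ± 13.9 CPM in KO mice, and Kif5c 1213 ± 78.5 CPM in WT mice and 1155 ± 99.1 CPM in KO mice (SD, n = 3 each). Their log2 fold changes were -0.05 (SE 0.06) and -0.07 (SE 0.06), with edgeR adjusted p-values of 0.835 and 0.793, and the groups overlapped. Per length, the family summed to 1359 ± 111 TPM in WT and 1220 ± 78.0 TPM in KO (SD, n = 3 each). Kif5a made up 47.0%, 43.0% and 41.8% of it in WT and 37.8%, 39.1% and 41.4% in KO. Kif5c made up 43.0%, 45.4% and 46.6% in WT and 50.3%, 48.4% and 46.9% in KO, and Kif5b 9.99%, 11.5% and 11.6% in WT and 11.9%, 12.5% and 11.8% in KO. None of these 3 shares overlapped between the genotypes, each at the smallest exact permutation p of 0.1 (adjusted p = 0.24 over 12 shares), and the gap between the nearest mice was under 1 percentage point in each. The shares of a family add up to a fixed total and are not independent. Kif5a has 53.8% GC, Kif5c 47.5% and Kif5b 41.1%. The females, both replicate 1, gave the highest Kif5a share in WT and the lowest in KO. They also gave the lowest Kif5c share in WT and the highest in KO. Shares were not recomputed with GC content trends removed, so the part of those trends in them was not tested.

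Kif1a and Kif1b encode kinesin-3 motors, which carry synaptic vesicle precursors, mitochondria and ARL8-bound organelles. Kif1a gave 1180, 1057 and 1082 CPM in WT and 964, 1051 and 1069 CPM in KO, and Kif1b 1142 ± 49.8 and 1132 ± 64.5 CPM (SD, n = 3 each). The groups overlapped in both, with log2 fold changes of -0.11 (SE 0.08) and -0.01 (SE 0.07) and edgeR adjusted p-values of 0.750 and 0.967. The light chain genes Klc1 and Klc2, whose products attach cargo to kinesin-1, had log2 fold changes of -0.10 (SE 0.10) and -0.18 (SE 0.14). Klc2, with 60.4% GC the richest of the 36 genes, gave 252, 208 and 204 CPM in WT and 160, 200 and 226 CPM in KO. KO replicate 1 was its lowest library, and KO replicate 3 lay within the WT range. All 7 kinesin genes were below 0, with a median of -0.10, but in the males alone Klc1 (0.029) and Klc2 (0.040) were above 0 and the median was -0.03. Without KO replicate 1 the values were 0.029 and 0.040 and the median -0.03, and without WT replicate 1 they were 0.037 and 0.049 and the median -0.02. Of 11 other kinesin and light chain genes 0 passed the threshold and 9 were below 0. The one with the highest mean CPM, which is not scaled by length, was the kinesin-2 motor gene Kif3c, which gave 296, 267 and 268 CPM in WT and 234, 226 and 245 CPM in KO, at -0.24 (SE 0.07, edgeR adjusted p = 0.293), without overlap between the groups. Kifap3, which encodes an accessory subunit of kinesin-2, was at -0.11 (SE 0.06, edgeR adjusted p = 0.689).

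The JIP adaptor genes Mapk8ip1 (JIP1), Mapk8ip3 (JIP3) and Spag9 (JIP4) encode scaffolds that bind kinesin, dynactin or both, and JIP3 and JIP4 act in the return of lysosomes. Mapk8ip3 gave 457, 402 and 399 CPM in WT and 294, 374 and 437 CPM in KO, at a log2 fold change of -0.20 (SE 0.13, edgeR adjusted p = 0.724). Its KO mice spread on both sides of WT replicates 2 and 3, and the log2 fold change was 0.0070 without KO replicate 1 and 0.016 without WT replicate 1. The Mapk8ip3 model overlaps Mrps34, Eme2 and Nme3, whose counts equal 7.23%, 3.86% and 2.61% of its own. Mapk8ip1 gave 280, 257 and 253 CPM in WT and 207, 257 and 288 CPM in KO, at -0.08 (SE 0.11), and Spag9 was at 0.02 (SE 0.07), with edgeR adjusted p-values of 0.870 and 0.957. In KO replicate 1 Spag9 was 46.9% of the 3 adaptors per length, against 34.6% to 39.0% in the other 5 mice. Of 14 other motor adaptor genes tested 0 passed the threshold. The highest in mean CPM were Mapk8ip2 at -0.13 (SE 0.08) and Rufy3, which couples ARL8 to dynein, at -0.01 (SE 0.06).

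Dync1h1 encodes the motor subunit of cytoplasmic dynein. It gave 700, 635 and 634 CPM in WT and 535, 640 and 652 CPM in KO, at -0.11 (SE 0.09, edgeR adjusted p = 0.776). The KO males lay among the WT mice and the KO female below them. The intermediate chain genes Dync1i1 and Dync1i2 were at -0.11 (SE 0.08) and 0.07 (SE 0.07), with edgeR adjusted p-values of 0.763 and 0.817. Dync1i1 made up 78.7% ± 1.11 of the pair per length in WT and 76.5% ± 2.67 in KO (SD, n = 3 each).

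The light intermediate chains, which connect dynein to cargo adaptors, included the other gene with an unadjusted p under 0.05. Dync1li2, on chromosome 8 at 104417674 to 104443047 (mm10), gave 306, 299 and 303 CPM in WT and 361, 336 and 317 CPM in KO. Every KO mouse lay above every WT mouse, and KO replicate 1 was the highest. Dync1li2 has 47.0% GC, among the 18 members of lower GC content, where that library was the highest of the 6 in 10. The log2 fold change was 0.16 (SE 0.06, 95% interval 0.01 to 0.30), with an edgeR adjusted p of 0.509 and a range from 0.240 to 0.996 over the alternative fits. Its log2 fold change stayed above 0 in all 16, from 0.11 to 0.21. The unadjusted edgeR p, 0.034, was 0.052 with no sex term and 0.109 in the males alone. Dync1li1 stood at 91.0 ± 1.19 CPM in WT mice and 88.2 ± 5.77 CPM in KO mice (SD, n = 3 each), at -0.05 (SE 0.07, edgeR adjusted p = 0.871). Its share of the pair per length was 35.0%, 34.9% and 34.8% in WT and 31.9%, 30.9% and 32.5% in KO, a difference of -3.14 percentage points. These shares did not overlap and had the smallest exact permutation p possible, 0.1 (adjusted p = 0.24 over 12 shares).

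**Figure D4:**
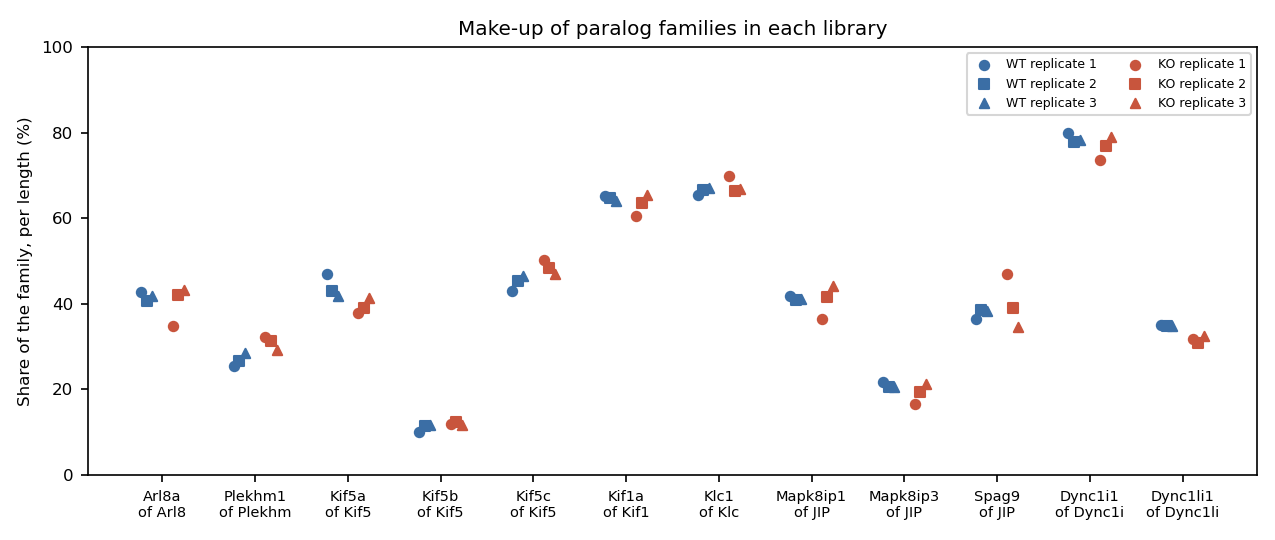
The vertical axis gives the share of 1 gene in its paralog family in each library, in percent of the family's level per length, with WT in blue and KO in red and circle, square and triangle for replicates 1 to 3. The shares of Plekhm1, the 3 Kif5 genes and Dync1li1 do not overlap between genotypes. In Arl8a, Kif1a, Klc1, Mapk8ip1, Mapk8ip3, Spag9 and Dync1i1 KO replicate 1 lies outside the range of the other mice.

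Dynactin, the activator of dynein, was followed through Dctn1 (p150Glued, the subunit that binds microtubules), Dctn2 (p50 dynamitin) and Dctn3. Dctn1 gave 308, 252 and 248 CPM in WT and 173, 240 and 294 CPM in KO. Among the 36 genes it had the widest spread between the KO mice, a coefficient of variation of 25.7%, and the KO mice reached from below all WT mice to above 2 of them. The log2 fold change was -0.21 (SE 0.18, edgeR adjusted p = 0.791). It was -0.12 with GC content and length trends removed and 0.08 without KO replicate 1. Dctn2 and Dctn3 were at -0.12 (SE 0.10) and -0.14 (SE 0.12), with edgeR adjusted p-values of 0.796 and 0.787. Dctn3 overlaps Il11ra1, which holds 126% of its counts, and Dctn2 overlaps Mbd6, which holds 11.8%. The regulators of dynein Pafah1b1 (LIS1) and Ndel1 were at 0.00 (SE 0.07) and 0.02 (SE 0.08). Pafah1b1 gave 709, 708 and 684 CPM in WT and 785, 664 and 663 CPM in KO, so that the KO female was above and the KO males below all WT mice. Of 19 other dynein and dynactin subunit genes 0 passed the threshold, with a median of 0.03. The highest in mean CPM, not scaled by length, were the light chain gene Dynll2 at -0.03 (SE 0.07) and the capping protein gene Capza2 at 0.11 (SE 0.07).

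Rab7 encodes the GTPase that marks late endosomes and lysosomes. It gave 302, 284 and 285 CPM in WT and 287, 274 and 286 CPM in KO, and the groups overlapped. The log2 fold change was -0.04 (SE 0.06, 95% interval -0.17 to 0.10), and it stayed between -0.05 and -0.02 over the 16 alternative fits. Rilp, the effector that recruits dynactin, was the least abundant of the 36 genes, with 52 to 98 counts per library and a mean of 5.49 TPM. Osbpl1a, which encodes the sterol-sensing effector ORP1L, was at 0.00 (SE 0.06) and Rab2a, a GTPase that binds HOPS, at -0.01 (SE 0.07). Rab2a was among the most abundant members per length, at 584 ± 19.4 TPM in WT and 593 ± 66.1 TPM in KO (SD, n = 3 each). Of 16 other genes of Rab7 regulation and of CORVET, the early endosomal tether related to HOPS, 0 passed the threshold, with a median of 0.01, and the highest in mean CPM were Rab5b at 0.02 (SE 0.06) and Rab5a at 0.03 (SE 0.08).

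The 6 HOPS genes, Vps11, Vps16, Vps18, Vps33a, Vps39 and Vps41, had log2 fold changes from -0.21 to 0.04 with a median of -0.04, or 0.02 in the males alone. Vps16 and Vps33a, whose promoters are printed above, were at -0.03 (SE 0.07) and -0.02 (SE 0.07), with edgeR adjusted p-values of 0.928 and 0.939. Vps16 gave 69.1, 66.1 and 69.0 CPM in WT and 62.9, 70.0 and 67.5 CPM in KO, and Vps33a 116, 131 and 119 CPM in WT and 117, 117 and 126 CPM in KO. The groups overlapped in both, and the KO mean of each lay within 1 WT SD of the WT mean. Vps16 overlaps Pced1a, which holds 19.0% of its counts. Vps18, a core subunit with 58.0% GC, had the lowest value, -0.21 (SE 0.16, edgeR adjusted p = 0.764), with 47.2, 40.3 and 37.0 CPM in WT and 28.5, 35.9 and 43.6 CPM in KO. Its lowest library was KO replicate 1, and KO replicate 3 exceeded 2 of the 3 WT mice. The log2 fold change of Vps18 was 0.030 without KO replicate 1 and 0.039 without WT replicate 1. Vps39 and Vps41, which encode the subunits at the ends of the tether that bind the membranes, were at 0.04 (SE 0.07) and -0.04 (SE 0.06), and Vps11 was at -0.05 (SE 0.08). Per length, Vps41 was the most abundant of the 6, at 203 ± 8.54 TPM in WT and 202 ± 17.8 TPM in KO, and Vps18 the least, at 31.2 ± 3.25 TPM in WT and 27.5 ± 5.28 TPM in KO (SD, n = 3 each).

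Of 12 fusion genes outside HOPS, the SNAREs and their partners, 0 passed the threshold, with a median of 0.01. Nsf, the ATPase that takes SNARE complexes apart, gave 823, 763 and 741 CPM in WT and 669, 681 and 713 CPM in KO, at -0.17 (SE 0.07, edgeR adjusted p = 0.509), without overlap. Napb, which encodes its adaptor beta-SNAP, was at 0.01 (SE 0.07). Over the 7 wider lists together, 90 of 92 genes were tested (Rufy4 was under the filter and Vamp7 was not matched) and 0 passed in edgeR, DESeq2 or limma-voom. There were 7 with an unadjusted edgeR p under 0.05, or 7.78% against 8.96% of all genes. Values were higher in KO for Hook1 (0.28) and Rab7b (0.75) and lower for Kif3c (-0.24), Kif17 (-0.34), Bicdl1 (-0.31), Vps8 (-0.21) and Nsf (-0.17), as log2 fold changes. Of these, Hook1, Rab7b, Kif17, Bicdl1 and Vps8 are named after their values were seen. Rab7b was low in every mouse, at 1.03 to 1.19 CPM in WT and 1.41 to 2.17 CPM in KO (SE 0.25, edgeR adjusted p = 0.392).

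Levels of the 36 genes per length spanned from 5.49 TPM (Rilp) to 602 TPM (Kif5c) as means over the 6 mice. After Kif5c the order was Rab2a at 589, Kif5a at 540, and Dctn2 and Kif1a at 415 TPM each. The Kif5c and Rab2a values overlapped between mice, as did those of Dctn2 and Kif1a. Kif5a and Rab2a overlapped too. By means, Kif5a was above Rab2a in WT, at 599 against 584 TPM, and below it in KO, at 480 against 593 TPM. At the lower end Plekhm1 followed Rilp at 25.2 TPM, then Vps18 at 29.3 and Map6 at 37.4 TPM. The median coefficient of variation between mice was 5.81% in WT and 8.90% in KO.

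**Figure D5:**
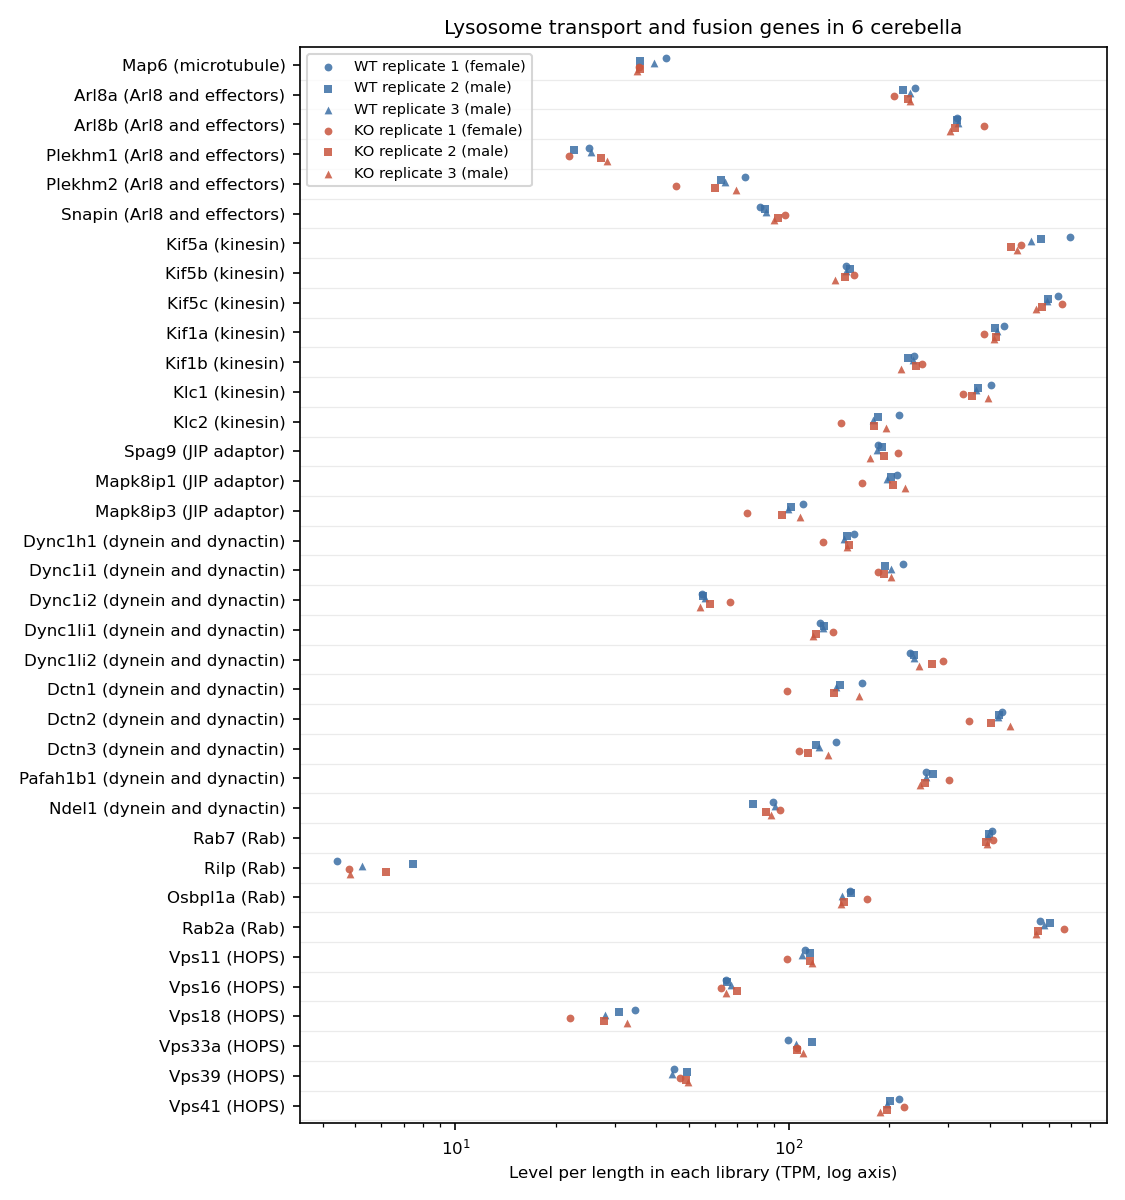
The horizontal axis gives the level per length of each gene in TPM on a log axis, and each row holds the 6 libraries of 1 gene (blue WT, red KO, with circle, square and triangle for replicates 1 to 3). Levels reach from 5.49 TPM in Rilp to 602 TPM in Kif5c, and within a gene the 6 mice lie close together compared with the differences between genes.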

How the data were processed

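RNA-seq read counts of 6 mouse cerebella were analysed. The authors deposited raw read counts per gene, with a length for each gene model, in 1 table. Per the submitters' processing notes, STAR and mm10 were used. No source used here names the counting tool, its strand setting or the annotation release. Totals were 25245778 to 31135185 counts, and the lowest count of a member other than Rilp was 724 (Vps18 in KO replicate 1). Pairs of replicates differed beyond counting noise, with a chi-square per degree of freedom of 7.45 to 31.1. Replicate numbers follow the order of deposit. The p-values set each difference against the spread between these 6 mice and no others. In the edgeR fit this spread was moderated across genes, with 3 residual and a median of 5.41 prior degrees of freedom.

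Counts were fitted in R 4.3.3 with edgeR 4.0.16: filterByExpr (minimum count 10, minimum total 15), TMM scaling, sex and genotype as terms, a robust quasi-likelihood fit, and Benjamini-Hochberg adjustment over 16934 genes at a threshold of 0.05. The SE of a log2 fold change is its size over the root of F, and 95% intervals use it with the degrees of freedom of the fit. TPM values are CPM per kilobase of the deposited length, scaled to one fixed sum over the tested genes. GC content came from the longest GENCODE M21 transcript of each gene (99.0% of tested genes, and all 36 members). Shares of paralogs were compared with exact two-sided permutation tests, with no GC content trend removed. The alternatives were RLE factors, no filter, a minimum mean of 1 CPM, DESeq2 (1.42.0), limma-voom (limma 3.58.1), the newer quasi-likelihood method, leaving out the sex term, using males alone, leaving out each library, a threshold of 0.10, and offsets for GC and length trends (loess, span 0.5). A choroid plexus score in place of sex was chosen after seeing the data. The steps were also tested on simulated data that held no GC content trends and no sex differences, so that test cannot show how the steps perform where these are present. The members, lists and alternatives were chosen with earlier results of these data known. All members are named, and of each wider list every gene past the threshold or, with none, the 2 with the highest mean CPM. Test results of single microglia markers are not reported here.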

Additional observations from a re-analysis of the deposited data

How the results depend on the processing

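No paired analysis was possible because the labels number no replicates. The titles of 1 WT mouse (replicate 1) and 2 KO mice (replicates 1 and 2) share a code whose meaning is not given in the labels, and those of the other 3 mice each carry a different one, so this code was not used as a block. The number of transport and fusion genes past the threshold was 0 of 36 in 14 of 17 alternatives and 1, Kif5a, in DESeq2, with no filter on low counts and with GC and length offsets. It was 0 of 90 for the wider lists in all 17. Over all genes the 48 calls became 75 with RLE factors, 199 with no filter, 76 with a mean of at least 1 CPM, 232 in DESeq2, 111 in males only, 271 with GC and length offsets, 109 at a threshold of 0.10 and 1 to 156 with each library left out (1 without WT replicate 2 or 3, 93 without WT replicate 1, and 117, 16 and 156 without KO replicates 1, 2 and 3). The cause was not tested. The median of the 36 genes, -0.05, was 0.0024 in males only and ran from -0.064 to 0.010 with each library left out. With 1 female left out, the sex term leaves the other without weight, so these fits rest on the same males.

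The direction held in all alternatives for 12 of 36 genes, below 0 for Dync1i1, Dync1li1, Kif1a, Kif5a, Kif5b, Kif5c, Map6, Rab7 and Vps41 and above 0 for Dync1i2, Dync1li2 and Snapin. It changed for the other 24, none of which passed the threshold in any fit, with these log2 fold changes. In males only they were Arl8a 0.018, Arl8b -0.058, Dctn1 0.085, Dctn2 0.016, Dctn3 0.0031, Dync1h1 0.017, Klc1 0.029, Klc2 0.040, Mapk8ip1 0.090, Mapk8ip3 0.0070, Osbpl1a -0.047, Pafah1b1 -0.078, Plekhm2 0.022, Spag9 -0.039, Vps11 0.045, Vps16 0.016, Vps18 0.030. With GC and length offsets they were Arl8b -0.015, Mapk8ip1 0.026, Osbpl1a -0.029, Pafah1b1 -0.060, Spag9 -0.029, with no filter Osbpl1a -0.00032, Pafah1b1 -0.00037, and with the choroid plexus score Kif1b 0.0010. The ranges with each library left out were Arl8a -0.14 to 0.026, Arl8b -0.058 to 0.072, Dctn1 -0.36 to 0.094, Dctn2 -0.21 to 0.025, Dctn3 -0.24 to 0.012, Dync1h1 -0.16 to 0.025, Kif1b -0.035 to 0.038, Klc1 -0.18 to 0.037, Klc2 -0.28 to 0.049, Mapk8ip1 -0.16 to 0.098, Mapk8ip3 -0.31 to 0.016, Ndel1 -0.050 to 0.088, Osbpl1a -0.047 to 0.035, Pafah1b1 -0.077 to 0.044, Plekhm1 -0.057 to 0.21, Plekhm2 -0.36 to 0.030, Rab2a -0.11 to 0.029, Rilp -0.25 to 0.050, Spag9 -0.039 to 0.077, Vps11 -0.10 to 0.053, Vps16 -0.063 to 0.024, Vps18 -0.35 to 0.039, Vps33a -0.060 to 0.021, Vps39 -0.0054 to 0.073. Paralog share differences were recomputed with each library left out and with counts not scaled by length. Of 84 such values 83 moved by less than the spread between replicates. In groups this small, leaving out a mouse cannot move a difference by more than this spread. The values with a library left out were therefore bound to fall within it and do not show that the shares are stable. Depth limits Rilp most, at 52 to 98 counts per library.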
